A study of Mus musculus with 4 samples.

Results

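Transcripts of 10 genes of the infarct scar were followed in left ventricular RNA from KDM5B-KO mice and WT mice. The genes were Fn1, Tnc, Postn, Sparc, Spp1, Thbs1, Thbs2, Thbs4, Ctgf and Cyr61. Members were all non-control probes that the array design names for these genes, which gave 19 of the 41174 probes on the array. Fn1, Tnc and Thbs1 had 3 probes each, Postn, Sparc and Thbs4 had 2, and Spp1, Thbs2, Ctgf and Cyr61 had 1. All 19 were well above background on all 4 arrays, so none was lost among the 28305 probes that were bright enough to test.

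The mice were of C57BL/6 background, were labelled male and were 8 to 10 weeks old at the operation. In KDM5B-KO mice, a deletion made with CRISPR/Cas9 removes part of the JmjC domain of the histone demethylase KDM5B and shifts the reading frame. In both groups the left anterior descending artery was ligated, and the left ventricle was taken 7 days after MI, so every heart compared here carried an infarct and no sham heart was measured on these arrays. Each genotype had 2 Agilent one-colour arrays, which the titles number 2 and 3, and they are called WT 2, WT 3, KO 2 and KO 3. The labels do not say whether an array holds 1 mouse or a pool, so p-values measure only the spread between these samples, which may be technical.

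Matricellular proteins are secreted into the matrix but serve mainly to pass signals between matrix and cells rather than to bear load. They are scarce in the resting adult heart and are deposited in the infarct zone by activated fibroblasts and inflammatory cells while the scar forms. They bind integrins, growth factors and collagen, and so act on cell adhesion, on the release of latent TGF-β and on the assembly of collagen fibres. Fibronectin, a structural glycoprotein of the provisional matrix, is usually studied beside them.

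The probes decide which stretch of each transcript was read, and the most telling ones are shown first. All were 60 bases long, and 6 of the 19 had a genome placement (mm9, from the array design) longer than the probe itself, as is found where a probe joins exons. One such probe is shown for Fn1, Tnc, Sparc and Thbs2, in lower case and as deposited, because of this longer placement. Exons were not assigned, so the joining of exons was not checked. The strand of each gene is given after its coordinates.
Fn1, chr1:71637422-71639659 (-): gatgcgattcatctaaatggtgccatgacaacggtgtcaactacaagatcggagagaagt
Tnc, chr4:63674248-63675011 (-): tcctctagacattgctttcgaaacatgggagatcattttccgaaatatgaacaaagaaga
Sparc, chr11:55209449-55212106 (-): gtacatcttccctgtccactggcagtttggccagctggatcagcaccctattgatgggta
Thbs2, chr17:14804526-14805789 (-): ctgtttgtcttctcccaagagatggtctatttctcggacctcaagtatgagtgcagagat

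A pair of Thbs1 probes is shown because they read different places of the transcript that hold a common run of letters. Capitals mark the 11 bases that are the longest run they share, GAGACAACTGC.
Thbs1, chr2:117948330-117948389 (+): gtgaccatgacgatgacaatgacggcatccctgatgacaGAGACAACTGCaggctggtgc
Thbs1, chr2:117946712-117946892 (+): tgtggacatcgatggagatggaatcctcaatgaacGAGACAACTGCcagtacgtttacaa

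Members of the thrombospondin and CCN families are paralogs, so the probes of different genes were compared letter by letter on the strand given. Over the 159 pairs of probes from different members, the longest run in common was 8 bases and the median was 5. Only the first 30 bases are shown for the Spp1 probe, on which the widest spread below rests.
Spp1, chr5:104869788-104869847 (+): cttagtctgttgtttcatgcaaacaccgtt

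The labels were checked before the comparison. The brighter Kdm5b probe read -0.87 (WT 2), -1.81 (WT 3), -2.40 (KO 2) and -2.26 (KO 3), in log2 units relative to the 75th percentile of each array, the scale used for all levels here. This placed the KO arrays under the WT arrays, but the signal was still well above background, and whether the probe lies inside the deleted stretch was not determined. The X-linked RNA Xist read 4.36 on WT 2 and 4.0 on KO 2 and was not above background on WT 3 and KO 3, whereas the Y-linked Ddx3y read 1.95 on WT 3 and 1.65 on KO 3 and was not above background on WT 2 and KO 2. The number 2 arrays thus went against their label of male, and the differences of the 10 genes are also given within each number. All 4 arrays lay on 1 slide, each in its own place, so place on the slide cannot be told apart from genotype, number or the single sample.

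Whether the loss of KDM5B changed these transcripts was asked first for all arrays together. None of the 19 probes passed the cutoffs, an adjusted p under 0.05 by limma and a fold change over 2, and neither did any other tested probe (0%). The adjusted p was 0.9999 for each of the 19, and the lowest unadjusted p was 0.315. By limma, 0 of the 19 had an unadjusted p under 0.05, against 1.45% of all tested probes. For 2 arrays a group, 0.333 is the smallest two-sided p that exact permutation allows. The values below are therefore descriptions of 4 hearts or pools, and standard errors (SE) are those of the limma fit with 2 arrays per group.

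The 10 genes mostly shared one order of arrays. At number 2, every one of the 19 probes was lower in KO than in WT, and at number 3, 18 of the 19 were higher in KO than in WT. Among all tested probes 48.9% were lower in KO at number 2 and 52% were higher in KO at number 3, while 27.2% were both, as were 18 of the 19. On average over the numbers, 18 of the 19 were lower in KO, against 47.7% of tested probes. The signal of 16 of the 19 probes was lowest on KO 2 and highest on KO 3, an order found in 22.5% of tested probes. No member probe had both KO arrays on one side of both WT arrays, whereas 10.9% of tested probes had both lower and 13.1% had both higher.

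**Figure D1:**
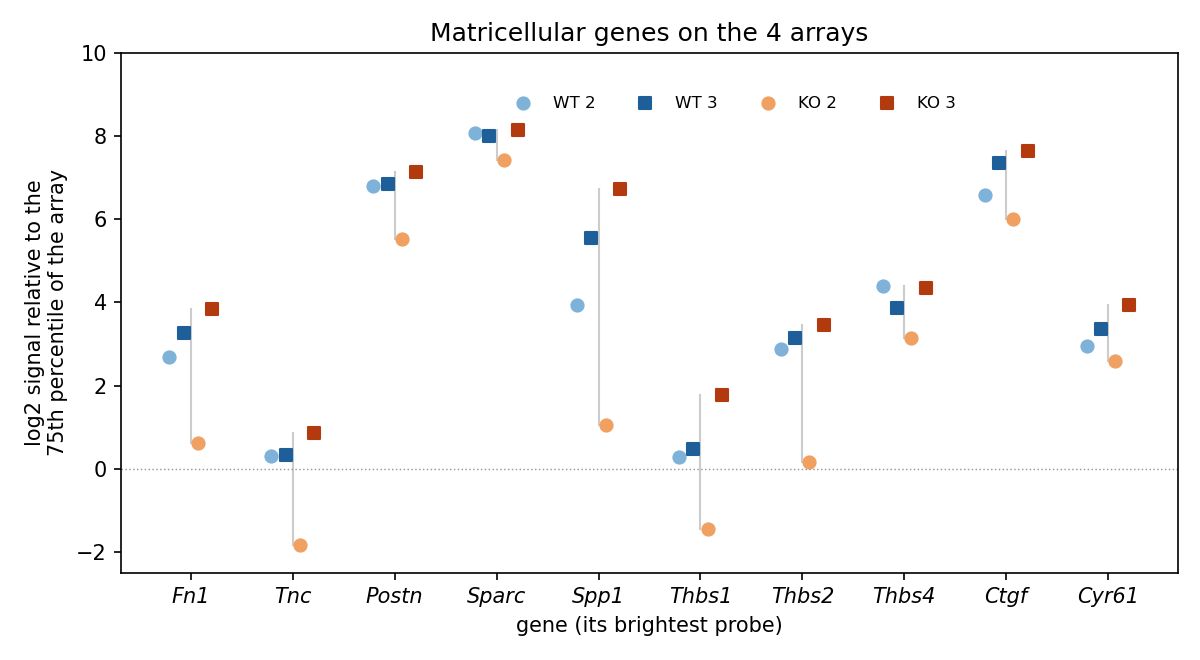
Log2 signal of the brightest probe of each of the 10 genes over the 75th percentile of its array (vertical axis) on each of the 4 arrays, with circles for number 2 and squares for number 3; grey lines span the lowest to the highest array. KO 2 is the lowest point of all 10 genes and KO 3 the highest of 9, the exception being Thbs4.

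Fibronectin and tenascin C form the provisional adhesive matrix on which cells enter the infarct. Fn1, which encodes fibronectin, read 2.68 (WT 2), 3.26 (WT 3), 0.62 (KO 2) and 3.85 (KO 3) with its brightest probe. KO 2 lay far below the other arrays and KO 3 just above them, so the WT arrays sat between the KO arrays. The average difference, KO minus WT, was -0.73 with an SE of 1.21, made of -2.06 at number 2 and 0.59 at number 3, and it was 0.88 without KO 2. The other Fn1 probes gave the same picture, with differences of -2.16 and -2.23 at number 2 and of 0.89 and 0.90 at number 3. The 3 probes lie in separate stretches of the transcript, and the widest distance between their average differences was 0.101.

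The Fn1 probe was printed repeatedly on each array, which gives the error of measurement within a hybridisation. Between 9 and 10 spots per array remained after outlier flags, and their SD ran from 0.023 to 0.04. The lowest spot on KO 3 read 3.81 and the highest on WT 3 read 3.29. Spots of one array share the RNA and are not replicates of a genotype.

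Tnc encodes tenascin C, a large oligomeric glycoprotein that loosens cell adhesion and appears at the border of infarcts. Its brightest probe read 0.29 (WT 2), 0.32 (WT 3), -1.85 (KO 2) and 0.85 (KO 3). The genome placement of this probe, 46 bases, is shorter than the probe itself. The WT arrays differed by only 0.03, while the KO arrays differed by 2.70 and enclosed them. The difference was -2.14 at number 2 and 0.53 at number 3, for an average of -0.81 with an SE of 1.01, and it was 0.54 without KO 2. The Tnc probe shown above gave -2.10 and 0.72, and the dimmest probe gave -1.19 and 0.18, so the probes shared their directions but not their sizes.

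Periostin and SPARC bind collagen and take part in fibre assembly. Postn, which encodes periostin, a product of activated fibroblasts, read 6.80 (WT 2), 6.85 (WT 3), 5.53 (KO 2) and 7.13 (KO 3). KO 2 again stood below the rest, and KO 3 was the highest by a small margin. The difference was -1.27 at number 2 and 0.28 at number 3, with an average of -0.49 and an SE of 0.62, and 0.30 without KO 2. The other Postn probe gave -1.28 and 0.55 for the same numbers.

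Sparc, which encodes a collagen-binding glycoprotein also known as osteonectin, varied least of the 10 genes. Its brightest probe read 8.08 (WT 2), 8.00 (WT 3), 7.43 (KO 2) and 8.16 (KO 3). The order of arrays was nearly that of Postn, over a range of less than 1 log2 unit. The average difference was -0.24 with an SE of 0.33, and it was 0.12 without KO 2. The second Sparc probe read 6.49 (WT 2), 6.02 (WT 3), 6.10 (KO 2) and 6.31 (KO 3). It was the one member probe whose KO arrays lay closer together than its WT arrays, at 0.21 against 0.47.

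Spp1 showed the widest spread of the 10 genes. It encodes osteopontin, a ligand of integrins and CD44 that macrophages produce in the healing infarct. Spp1 read 3.95 (WT 2), 5.54 (WT 3), 1.06 (KO 2) and 6.73 (KO 3). No array lay close to another, and the KO arrays held both extremes. KO 3 exceeded KO 2 by 5.67 log2 units, or 51.0-fold, a gap that only 0.0247% of tested probes surpassed, while WT 3 exceeded WT 2 by 1.59, or 3.01-fold. The difference between genotypes was -2.89 at number 2 and 1.19 at number 3. Their average of -0.85 had an SE of 2.16, the largest of the 19 probes, and it was 1.99 without KO 2 and -3.68 without KO 3.

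The Spp1 probe also had 8 to 10 usable spots per array, with an SD between 0.02 and 0.036. On KO 2 they ran from 1.005 to 1.106 and on KO 3 from 6.69 to 6.77. These spots share the RNA of their array and hold nothing of the variation between hearts.

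**Figure D2:**
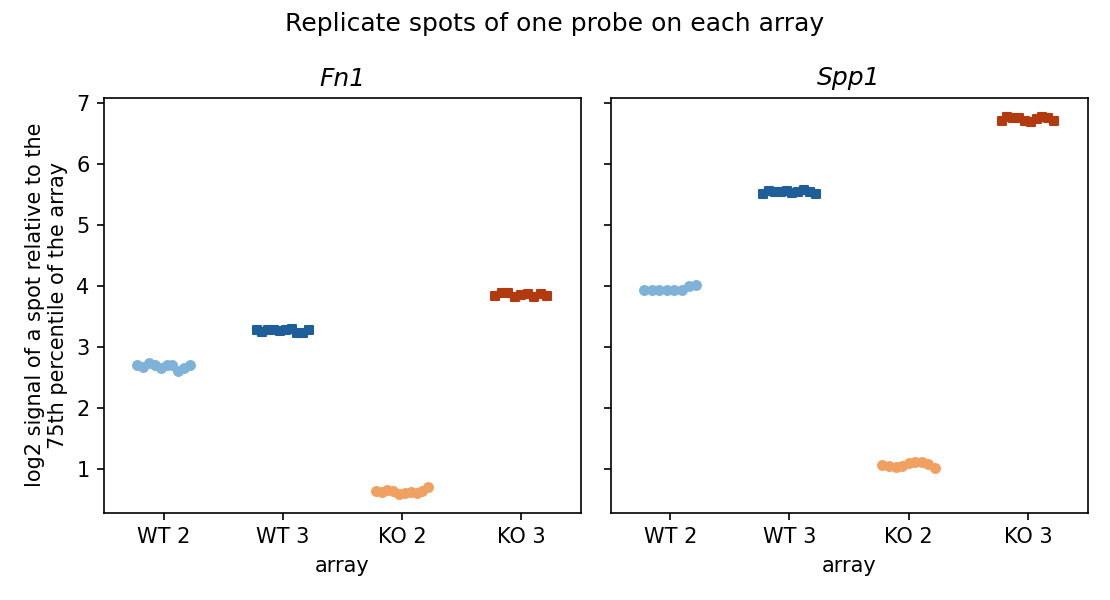
Log2 signal of each replicate spot of the Fn1 probe (left) and the Spp1 probe (right) over the 75th percentile of its array, on each of the 4 arrays. Spots of one array fall on nearly one level (SD 0.02 to 0.04), while the arrays of one genotype stand apart, most of all KO 2 and KO 3.

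The thrombospondins are calcium-binding oligomers, of which Thbs1 and Thbs2 inhibit angiogenesis and Thbs1 also activates latent TGF-β. Thbs1 read 0.27 (WT 2), 0.48 (WT 3), -1.45 (KO 2) and 1.77 (KO 3) with its brightest probe. The WT arrays were close to each other, and the KO arrays lay more than 1 log2 unit to either side. The difference was -1.72 at number 2 and 1.29 at number 3, so that the average was only -0.22 with an SE of 1.20, and 1.40 without KO 2. The remaining Thbs1 probes gave -1.78 and -1.99 at number 2, with 1.38 and 1.24 at number 3. With Spp1, these 3 probes were the member probes in which KO 3 exceeded WT 3 by more than 2-fold.

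Thbs2 read 2.87 (WT 2), 3.15 (WT 3), 0.15 (KO 2) and 3.46 (KO 3). Both WT arrays and KO 3 were near one level, and KO 2 was well below it. The difference of -2.71 at number 2 was the largest after that of Spp1 and corresponds to 6.56-fold less signal on KO 2 than on WT 2, while the difference at number 3 was 0.31. Its average of -1.20 with an SE of 1.23 made Thbs2 the one member probe past 2-fold on average, and this was 0.45 without KO 2.

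Thbs4, which is expressed in stressed heart muscle and in tendon, was the member whose probes differed in sign at number 3. The brighter probe, at chr13:93521565-93521624, read 4.39 (WT 2), 3.86 (WT 3), 3.15 (KO 2) and 4.34 (KO 3). KO 2 was lowest, but here KO 3 was just below WT 2. The dimmer probe, at chr13:93525120-93525179, read 2.67 (WT 2), 3.19 (WT 3), 0.83 (KO 2) and 3.05 (KO 3). It was the single member probe that was lower in KO at number 3, by -0.15 against 0.49 for the brighter probe. The average difference was -0.38 with an SE of 0.52 for the brighter probe and -0.99 with an SE of 0.86 for the dimmer one. Without KO 2, the brighter probe gave 0.22.

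Ctgf and Cyr61 encode the CCN proteins CCN2 and CCN1, which are early targets of TGF-β and of YAP and TEAD factors. Ctgf read 6.58 (WT 2), 7.36 (WT 3), 6.0 (KO 2) and 7.64 (KO 3). Both number 3 arrays lay above both number 2 arrays, an order that Fn1, Tnc, Postn, Spp1, Thbs1 and Thbs2 also had with their brightest probes. The average difference was -0.15 with an SE of 0.69, it was 0.67 without KO 2 and 0.24 without WT 3, and within the numbers it was -0.59 and 0.29.

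Cyr61 read 2.96 (WT 2), 3.36 (WT 3), 2.58 (KO 2) and 3.93 (KO 3). The order of the arrays was that of Ctgf. The average difference was 0.09 with an SE of 0.55, the one positive average among the 10 genes, and within the numbers it was -0.37 and 0.56. Its sign turned to -0.24 when the arrays were not shifted to a common 75th percentile, to -0.11 without WT 2 and to -0.58 without KO 3.

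Set side by side, the genes differed in size more than in direction. At number 2, 15 probes of 7 genes were more than 2-fold lower in KO, a size that 8.84% of tested probes reached, and no member probe was more than 2-fold higher (6.19%). The genes without such a probe were Ctgf, Cyr61 and Sparc. At number 3, 4 probes were more than 2-fold higher in KO (2.23%) and none was more than 2-fold lower (1.78%). Averaged over the numbers, 1 probe was more than 2-fold lower (2.35%) and none was more than 2-fold higher (1%). Without KO 3, 14 probes were more than 2-fold lower, without WT 2 this held for 4, and without KO 2 it held for none, while 6 were then more than 2-fold higher.

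The median difference of the 10 genes, with the brightest probe for each, was -0.435 on average (range -1.20 to 0.09). It was -1.497 at number 2 (range -2.89 to -0.37) and 0.51 at number 3 (range 0.16 to 1.29). Over all tested probes the medians were 0.02, 0.01 and 0.01. Without KO 2 the median of the 10 genes was 0.61, with all 10 higher in KO, and without KO 3 it was -1.56, with all 10 lower. The direction of the pooled comparison thus depended on which KO array was kept.

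**Figure D3:**
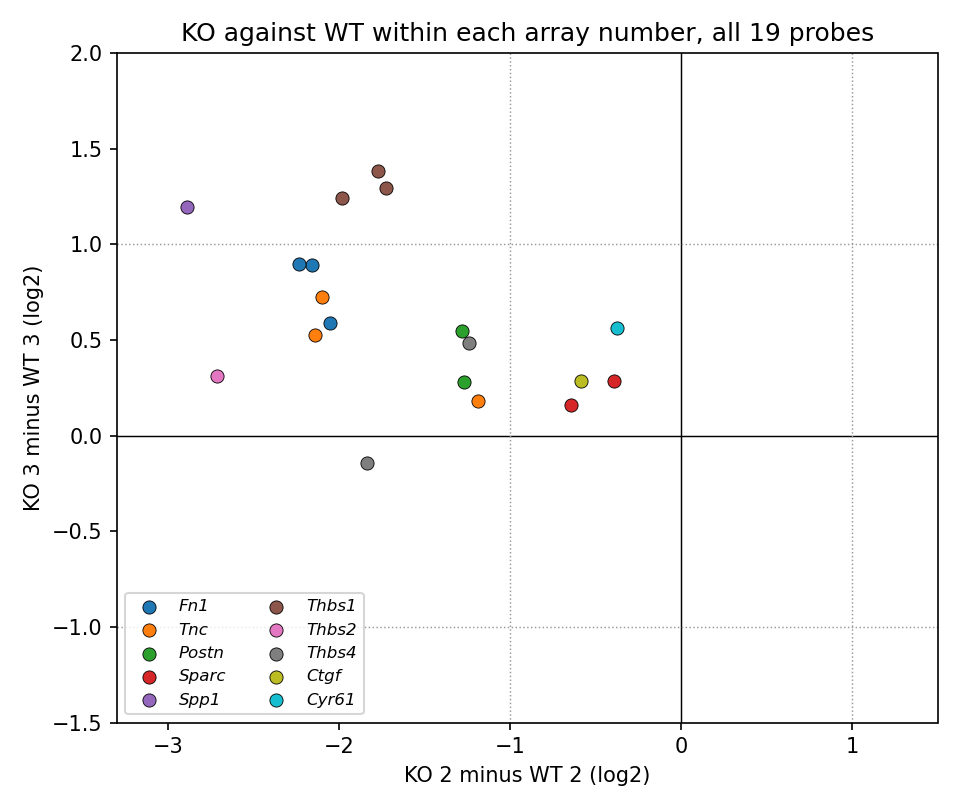
KO minus WT at number 2 (horizontal axis) against KO minus WT at number 3 (vertical axis), in log2 units, for all 19 probes, coloured by gene; dotted lines mark a 2-fold difference. All points lie left of 0 and 18 of 19 lie above 0, the exception being a Thbs4 probe at -0.15 on the vertical axis.

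The distance between arrays of one genotype was then compared. KO 3 exceeded KO 2 by more than 2-fold for 17 of the 19 probes, against 14% of tested probes. Over the 10 genes the median of KO 3 minus KO 2 was 2.17 (range 0.72 to 5.67), and over all tested probes it was 0.06. Without regard to sign, the median gap between the KO arrays was 2.17 for the 10 genes and 0.56 for all tested probes, and that between the WT arrays was 0.34 and 0.22. A gap between KO arrays wider than that between WT arrays was found for 18 of the 19 probes, but 81% of tested probes shared it.

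**Figure D4:**
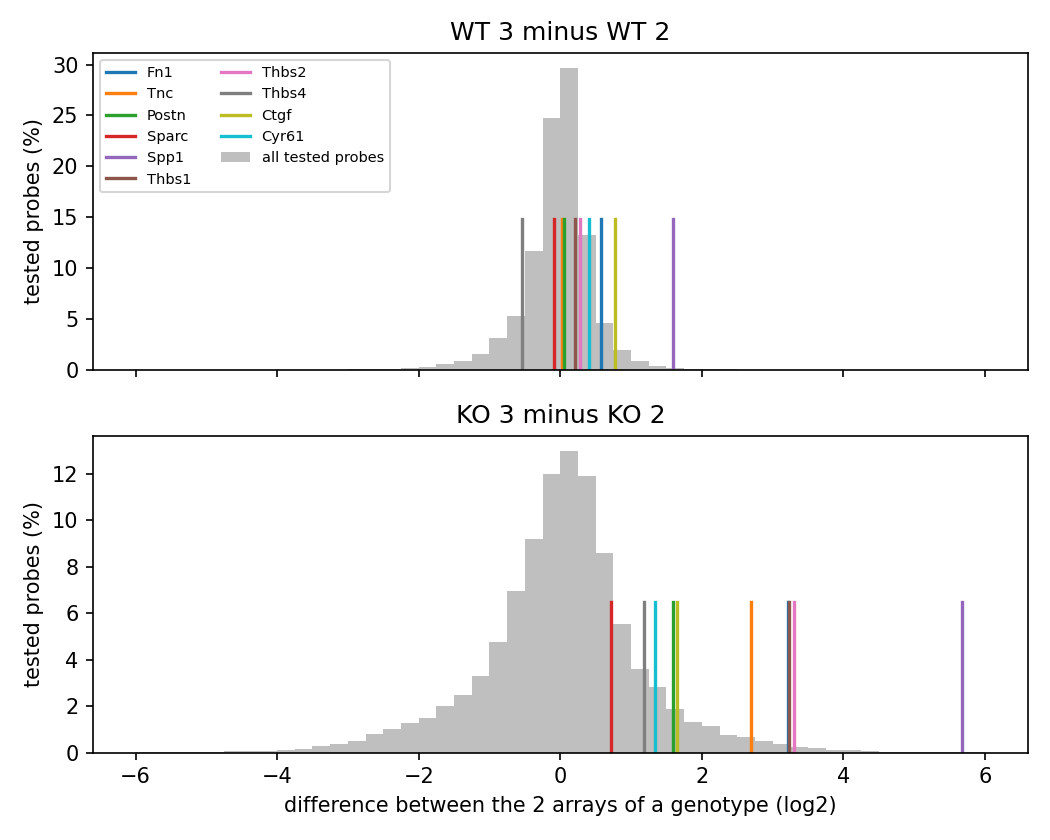
Histograms (grey bars, percent of tested probes in bins of 0.25 log2 units) of the difference between the arrays of WT (top) and of KO (bottom), with coloured lines at the brightest probe of each of the 10 genes; probes beyond 6 are counted in the outer bins, and Fn1 is hidden behind Thbs1 in the lower panel. The WT lines lie between -0.54 and 1.59 and the KO lines between 0.72 and 5.67.

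Other matricellular genes were mostly lower in KO at number 2 as well, while at number 3 they lay on both sides of 0. Of a list of 25 such genes 22 were tested, 0 passed the cutoffs by limma (0% of all tested probes) and 4 were more than 2-fold lower on average (2.35%). Their median difference was -0.55 on average, -1.14 at number 2 and -0.12 at number 3. At number 2, 18 of the 22 were lower in KO, and at number 3, 10 of the 22 were higher. All 10 members were higher at number 3, and the difference between the lists was not tested.

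In 5 genes of this list the groups did not overlap and KO was the lower, as in 10.9% of tested probes. Fbln1, which encodes the elastic fibre and basement membrane protein fibulin 1, read 4.15 (WT 2), 4.64 (WT 3), 2.85 (KO 2) and 3.05 (KO 3), an average difference of -1.45. Cilp, whose product is a matrix protein of cartilage and scar that binds TGF-β, read 4.47 (WT 2), 4.01 (WT 3), 2.85 (KO 2) and 3.20 (KO 3), a difference of -1.21. In both genes the KO arrays lay close together. The others were Tnn, a tenascin that was not well above background on KO 2, and Thbs3 and Ogn, named after their values were seen, with differences of -0.86 and -0.81. Comp, a thrombospondin of cartilage and tendon, differed by -1.28 on average with overlapping groups, by -2.18 at number 2 and by -0.39 at number 3.

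Receptors of these proteins had median differences closer to 0. All 17 listed receptors were tested and 0 passed by limma, with a median difference of -0.13 on average, -0.34 at number 2 and 0.07 at number 3. None was more than 2-fold apart on average. Cd47, the receptor of thrombospondin 1 that inhibits phagocytosis, was the one receptor of 17 whose groups did not overlap (13.1% of tested probes with KO higher and 10.9% with KO lower), and it differed by 0.08. Of the 17 receptors, 10 were lower in KO at number 2 and 11 were higher in KO at number 3. The osteopontin receptor Cd44, named after its values were seen, read 3.13 (WT 2), 2.75 (WT 3), 1.46 (KO 2) and 3.18 (KO 3), with KO 2 lowest as in the members. Cd36 went the other way at number 2, with 3.78 on WT 2 and 4.87 on KO 2.

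The factors that act upstream of Ctgf and Cyr61 also had a median near 0. Of 18 listed genes for TGF-β ligands, SMAD proteins, YAP, TEAD and SRF cofactors and LATS kinases, all were tested, 0 passed by limma and the median difference was -0.04. The groups did not overlap for 3 of the 18, a share no larger than among tested probes, of which 13.1% were higher and 10.9% lower in this way. Tead1, a DNA-binding partner of YAP, was higher in KO by 0.38, and Mkl2, a cofactor of SRF, was higher by 0.23. Smad3, which carries the TGF-β signal, was lower by -0.36.

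Markers of the cells of the infarcted ventricle moved with the same arrays. The cardiomyocyte list averaged 6.03 (WT 2), 4.93 (WT 3), 7.07 (KO 2) and 4.10 (KO 3), and all 10 of its genes read above WT 2 on KO 2 and below WT 3 on KO 3, opposite to the 10 matricellular genes. The macrophage list averaged 3.20 (WT 2), 4.06 (WT 3), 1.79 (KO 2) and 4.55 (KO 3), with all 8 genes lower in KO at number 2 and higher at number 3. The myofibroblast list averaged 4.06 (WT 2), 4.67 (WT 3), 2.34 (KO 2) and 5.26 (KO 3). All 6 of its genes were lower in KO at number 2 and 5 of the 6 were higher at number 3. On average, 2 of the 6, Lox and Cthrc1, were more than 2-fold lower (2.35% of tested probes), by -1.16 and -1.01. Acta2 and Tagln were higher on average, by 0.33 and 0.10. The part of these markers in the matricellular differences was not tested. In RNA of a whole ventricle, fewer cells of a type and less RNA per cell cannot be told apart.

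Among further lists, the averages of those of neutrophils and of the epicardium and mesothelium had the array order of most members. The neutrophil list averaged 0.36 (WT 2), 0.71 (WT 3), -2.27 (KO 2) and 0.79 (KO 3). All 5 of its genes were lower in KO at number 2, and 3 of the 5 were higher at number 3. On average, 4 of the 5 were more than 2-fold lower (2.35% of tested probes) and none was more than 2-fold higher (1%). These 4 were Cxcr2, S100a9, S100a8 and Csf3r, by -2.02, -1.21, -1.21 and -1.07. Only for Cxcr2 did the groups not overlap, with KO lower (10.9% of tested probes). The fibroblast list averaged 5.33 (WT 2), 5.46 (WT 3), 4.52 (KO 2) and 5.18 (KO 3). In 4 of its 8 genes, Dpt, Pdgfra, Lum and Dcn, the groups did not overlap and KO was the lower (10.9% of tested probes), by -0.98, -0.78, -0.69 and -0.20 on average. Its other 4 genes overlapped, and the collagen genes Col1a1, Col1a2 and Col3a1 were higher in KO at number 3, by 0.17, 0.24 and 0.07. The endothelial list was the reverse at number 2, with an average of 1.75 on WT 2 and 2.31 on KO 2, and read 1.85 on WT 3 and 1.54 on KO 3. The epicardial and mesothelial list averaged -0.43 (WT 2), 0.27 (WT 3), -2.22 (KO 2) and 1.22 (KO 3). Of its 4 genes, 3 were lower in KO at number 2 and all 4 were higher at number 3. The exception, Wt1, was higher in KO at number 2 by 0.404 and by 0.78 on average. Its groups did not overlap, with KO higher (13.1% of tested probes). Platelet, smooth muscle, and tendon and cartilage lists had average differences with medians of 0.13, 0.00 and -0.45.

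**Figure D5:**
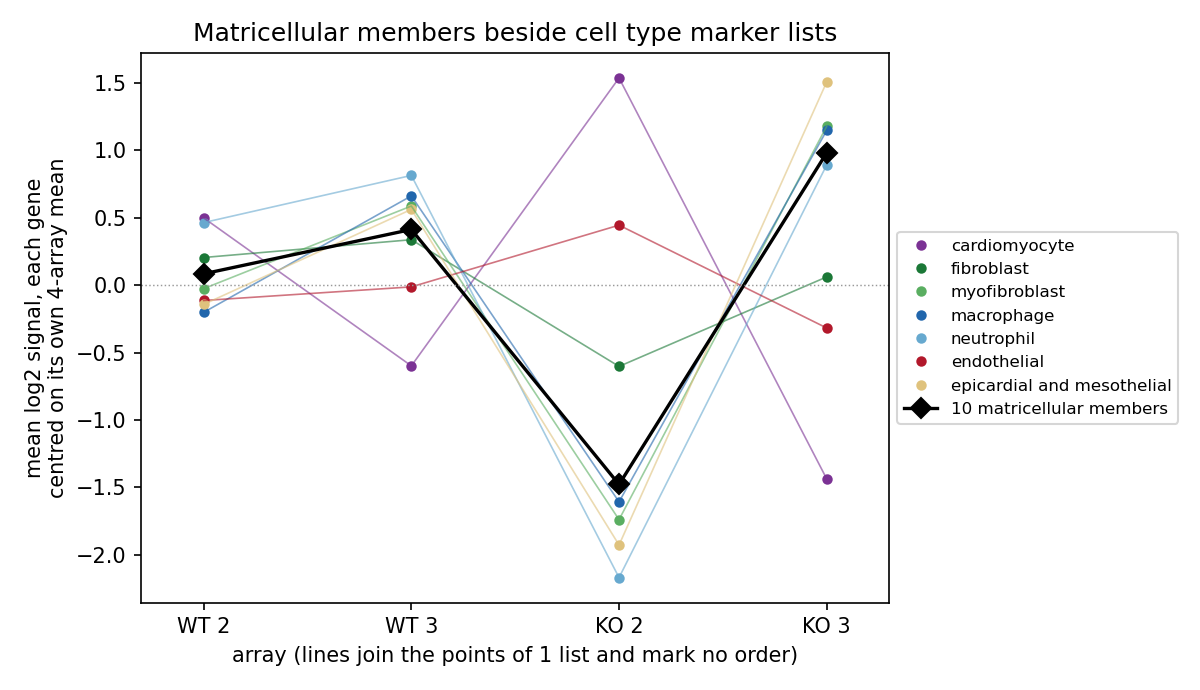
Mean log2 signal of the 10 matricellular genes (black diamonds) and of 7 cell type marker lists (coloured circles) on each array, each gene centred on its own mean over the 4 arrays; lines join the points of a list and mark no order. The 10 genes read -1.48 on KO 2 and 0.98 on KO 3, while the cardiomyocyte list reads 1.54 on KO 2 and -1.44 on KO 3.

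The likeness of each gene to these lists was measured as the root mean square distance between profiles over the 4 arrays, each centred on its own mean. Fn1 and Tnc lay closest to the myofibroblast list, at distances of 0.139 and 0.253. Sparc lay closest to the fibroblast list at 0.170, Postn and Thbs4 to the tendon and cartilage list at 0.161 and 0.134, and Thbs2 to the neutrophil list at 0.097. Ctgf and Cyr61 had no close list, with nearest distances of 0.423 to macrophage and 0.307 to smooth muscle markers. Thbs1 and Spp1 were nearest to the epicardial and mesothelial list, at 0.217 and 0.877, and Spp1 was the furthest from any list. With 4 arrays these distances describe the profiles and name no source cell.

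Among 21953 probes of other genes that were well above background on all arrays, the 5 genes with profiles most like the mean of the 10 members were Lair1, Cdh11, Plek, Arhgap15 and Msr1, at distances of 0.012 to 0.035. Lair1 encodes an inhibitory collagen receptor of leukocytes, Cdh11 a cadherin of fibroblasts and macrophages, Plek the pleckstrin of platelets and leukocytes, and Msr1 a scavenger receptor of macrophages. Lair1 read 1.19 (WT 2), 1.54 (WT 3), -0.36 (KO 2) and 2.11 (KO 3).

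The sequence before the transcription starts of the members was also described, and its part in the order of arrays was not tested. RefSeq promoters (GRCm38.p6) were matched for 7 of the 10 genes, Postn, Spp1, Thbs2, Thbs4, Tnc, Sparc and Cyr61, in 10 windows of 250 bases. The letters TATAAA, searched on both strands, were found in 6 of the 10 windows, against 12.37% of 32851 RefSeq promoters of this length. These promoters did not cover the whole genome. The windows with these letters belonged to 5 of the 7 genes, Postn, Spp1, Thbs2, Tnc and Cyr61, and the windows of Tnc overlap. In Spp1 the letters begin 211 bases before the start, in Thbs2 126 on the minus strand, and in Tnc 126 or 205. In Postn and Cyr61 they begin 26 and 25 bases before the start, and these promoters are shown with the letters in capitals.
Postn, chr3:54360857-54361106 (+): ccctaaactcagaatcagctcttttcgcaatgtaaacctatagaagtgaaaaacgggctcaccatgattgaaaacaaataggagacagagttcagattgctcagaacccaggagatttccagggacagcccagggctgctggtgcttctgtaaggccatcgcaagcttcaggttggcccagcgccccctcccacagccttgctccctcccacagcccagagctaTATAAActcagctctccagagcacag
Cyr61, chr3:145649986-145650235 (-): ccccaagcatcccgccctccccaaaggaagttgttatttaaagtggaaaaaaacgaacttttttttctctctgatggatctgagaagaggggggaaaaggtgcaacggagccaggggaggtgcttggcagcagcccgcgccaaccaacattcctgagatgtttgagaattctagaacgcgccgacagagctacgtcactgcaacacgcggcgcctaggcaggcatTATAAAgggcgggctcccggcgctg

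Further letters were searched in the same windows, and none of the letters searched, TATAAA included, was found in all 7 genes. GGAATG, the core that TEAD factors bind, was found in the windows of Thbs4 and Cyr61 and in 12.64% of the RefSeq promoters searched. GGGCGG, a GC box, was found in those of Thbs4, Tnc and Cyr61 and in 32.74% of the promoters searched. The AP-1 letters TGANTCA and the CArG box of SRF were in none of the 10 windows, against 6.75% and 1.47% of the promoters searched. All were searched on both strands, a GC box follows directly on the TATAAA of Cyr61, and such matches are descriptions of the letters in these windows and not of binding.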

How the data were processed

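Left ventricles of 2 WT and 2 KDM5B-KO mice or pools were profiled with one-colour Agilent arrays of the whole mouse genome. The authors scanned the arrays and deposited the intensity of every spot from Agilent Feature Extraction 10.7 (10.7.3.1 per the file headers), with the processed intensity already background-subtracted and detrended. A second file from the authors gives log2 values normalized with GeneSpring. For tested probes, 99.9% of them matched quantile normalization of the log2 processed intensity within 0.01. That table served as an alternative, and no column of samples was left unused (0).

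Of 45018 spots per array, 43379 were non-control spots. Between 92 and 116 spots with outlier flags were left out per array, 0 were saturated, and spots of one probe were averaged. The share of probes well above background was 68.15% to 72.05%, and the number of arrays limits the precision. The log2 processed intensity was shifted by its 75th percentile, which was 876.3 (WT 2), 976.1 (WT 3), 607.6 (KO 2) and 885.2 (KO 3). Probes that 1 genotype or both showed well above background on each of its arrays were tested with limma 3.58.1 in R 4.3.3, with Benjamini-Hochberg adjustment over all 28305 of them. The fit was also run on simulated arrays with independent noise. The same-numbered arrays here were correlated, so that run does not show how the fit behaves on these data. A gene's value is that of its brightest tested probe.

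Groups and numbers came from the titles. The members and lists were chosen with earlier results of these data known. Genes planned for naming were the 10 members, Kdm5b, Xist and Ddx3y, up to 4 genes per list past 2-fold or with groups that did not overlap, and the 5 nearest profiles. This rule was not kept throughout. Thbs3, Ogn, Cd44, Cd36, Col1a1, Col1a2 and Col3a1 were named outside it, and in some marker lists genes that met it were not named. Alternatives were normexp with an offset of 50, quantile normalization, a median shift, no shift, filters on dim probes, the authors' table, the number as a replicate block, leaving out each array, robust eBayes with a trend, the methods' t-test, and the mean of a gene's probes. Coordinates are on mm9 as deposited, and no mm9 annotation was used, so exons and UTRs were not assigned. Promoters came from RefSeq (GRCm38.p6), where Cyr61 is listed as Ccn1.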

Additional observations from a re-analysis of the deposited data

Results flagged for a closer look

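In all 10 genes the KO array lay below the WT array at number 2 and above it at number 3, with the brightest probe of each. The difference between genotypes at number 3 less that at number 2 was 4.08 log2 units for Spp1, 3.03 for Thbs2, 3.02 for Thbs1, 2.67 for Tnc and 2.64 for Fn1. It was 1.72 for Thbs4, 1.55 for Postn, 0.94 for Cyr61, 0.87 for Ctgf and 0.80 for Sparc. Among all tested probes 27.2% were lower at number 2 and higher at number 3. The difference between the numbers was not tested, since each number holds 1 array per genotype, and the numbers also differ in Xist and Ddx3y.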

How the results depend on the processing

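No member probe was called under any of the alternatives run, the methods' t-test included (0 after Benjamini-Hochberg adjustment and 0 with p unadjusted). The lowest adjusted p of a member probe was 0.128, in the fit without KO 3. The number of member probes past 2-fold on average, 1 as reported, was 2 with normexp, 2 with quantile normalization, 2 with the authors' table and 7 with no shift, all lower in KO. It ran from 1 to 14 when an array was left out. The median of the 10 genes then ran from -1.56 to 0.608, and with all 4 arrays from -0.77 to -0.406. The medians within a number kept their signs, from -2.025 to -1.411 at number 2 and from 0.366 to 0.507 at number 3. With no shift the median of all tested probes moved to -0.317, and with normexp to 0.132.

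With all 4 arrays, 1 of 90 values of member genes changed sign, Cyr61 at -0.24 with no shift. With an array left out, 12 of 40 did, of which 9 were in the fit without KO 2 and 1 in each of the other fits. In the fit without KO 2 the KO value is that of KO 3 alone, and the cause of the gap between KO 2 and KO 3 was not tested. The ranges were -2.35 to 0.88 for Fn1, -1.29 to 0.30 for Postn, -3.68 to 1.99 for Spp1, -1.83 to 1.40 for Thbs1, -2.85 to 0.45 for Thbs2, -0.97 to 0.22 for Thbs4, -2.15 to 0.54 for Tnc, -0.60 to 0.12 for Sparc, -0.97 to 0.67 for Ctgf and -0.58 to 0.77 for Cyr61. Here the group with 1 array borrowed its spread from the group with 2.

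The arrays share a number in their titles, and deviations from the group means of same-numbered arrays correlated at 0.569 over 28305 probes, with only 2 pairs. With the replicate block, 0 member probes were called, 1 was past 2-fold, the median stayed at -0.435, and probes with an unadjusted p under 0.05 went from 410 to 602 over all tested probes, none of them a member. A slide or scan block was not run, with 1 slide and 1 scan day.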
